A study of Mus musculus with 6 samples.

Results

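The genes of mitosis and cytokinesis form a set of 38, chosen by symbol: kinases and cyclins of the step from G2 into mitosis, the spindle checkpoint, mitotic kinesins, the kinetochore and the machinery that divides the cell. All 38 symbols matched 1 Ensembl row each among the 30323 gene IDs of the table, and all 38 passed the filter on low counts among 14697 tested genes. The libraries come from whole hearts of mouse embryos at day 9.5 (E9.5): 3 from controls of genotype C57BL/6 ctrl and 3 of genotype CDC-42 KO. The series' text describes the latter as a myocardial knockout of Cdc42 (MCKO), and gives 3 hearts per set. The labels name no Cre driver, deleted exon or litter, and do not say whether a library is 1 heart. Cdc42 encodes a small GTPase that organises actin and cell polarity.

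Cells enter mitosis when cyclin B and its kinase CDK1 become active. Polo-like and Aurora kinases then build the spindle, the kinetochore joins chromosomes to it, and the spindle checkpoint restrains CDC20 and the anaphase-promoting complex (APC/C) until every chromosome is attached. The central spindle finally directs a contractile ring that separates the daughter cells. Transcripts of these genes rise in G2 and mitosis and are low in resting cells, so their level in a tissue is widely used as a sign of dividing cells. The embryonic heart grows largely by division of its cells.

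Library totals ran from 19256840 to 32169289 estimated counts in controls and from 23883877 to 34246477 in MCKO. The lowest count of a member in any library was 525. Levels below are normalised CPM, counts as a share of the library's total on the CPM scale, after TMM scaling, which corrects library totals for differences in composition. Cdc42 itself had 390.4, 371 and 413 normalised CPM in controls and 253, 246 and 245 in MCKO (log2 fold change -0.66, SE 0.047, edgeR adjusted p = 2.93e-06). A whole heart also holds cell types other than muscle. The gene lies at chr4:137319696-137357720 (GRCm38). Over all tested genes 58.4% were called at an adjusted p under 0.05. The labels give no batch, so a batch that follows the groups cannot be told apart from the genotype. Since no label says that the libraries are separate litters or cultures, p-values cover only the spread among these libraries, and part of that may be technical.

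Most of the mitotic genes were lower in MCKO, and each by less than 1.5-fold. Of the 38, 24 fell and 2 rose, and 12 were not called (edgeR's quasi-likelihood test, Benjamini-Hochberg adjusted p under 0.05 over all tested genes). Over all tested genes 29.1% were called lower and 29.3% higher. Among the 6702 tested genes within the members' range of mean level, 34.6% were called lower. At an adjusted p under 0.01, 21 of the 38 were lower and 1 higher, where 22.5% and 22.8% of all tested genes were. With a 1.5-fold change asked for as well, none was called, where 9.14% of all tested genes were lower and 13.8% higher. The median log2 fold change of the 38 was -0.185, against 0.001 over all tested genes. The 24 that fell had a median absolute change of 0.24, and the 4279 tested genes that fell had one of 0.42. The 4279 include genes with low counts, where only larger changes tend to be called. Of the 6702 genes within the members' range of level, 86.9% had an absolute log2 fold change under 0.6, as had all 38. Together the 38 genes took 0.552, 0.528 and 0.559% of all counts in the control libraries and 0.478, 0.471 and 0.465% in MCKO. This sum was lower in each MCKO library than in any control. In bulk RNA, fewer dividing cells and less RNA per dividing cell cannot be told apart.

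The 3 MCKO libraries lay below all 3 controls for 26 of the 38 genes and above them for 4, while 8 genes overlapped. Over all tested genes the groups did not overlap for 32.3% in the lower direction and 32.4% in the higher one. The plot of each library shows the MCKO values close together for most genes, and a wider spread among the controls for several.

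**Figure D1:**
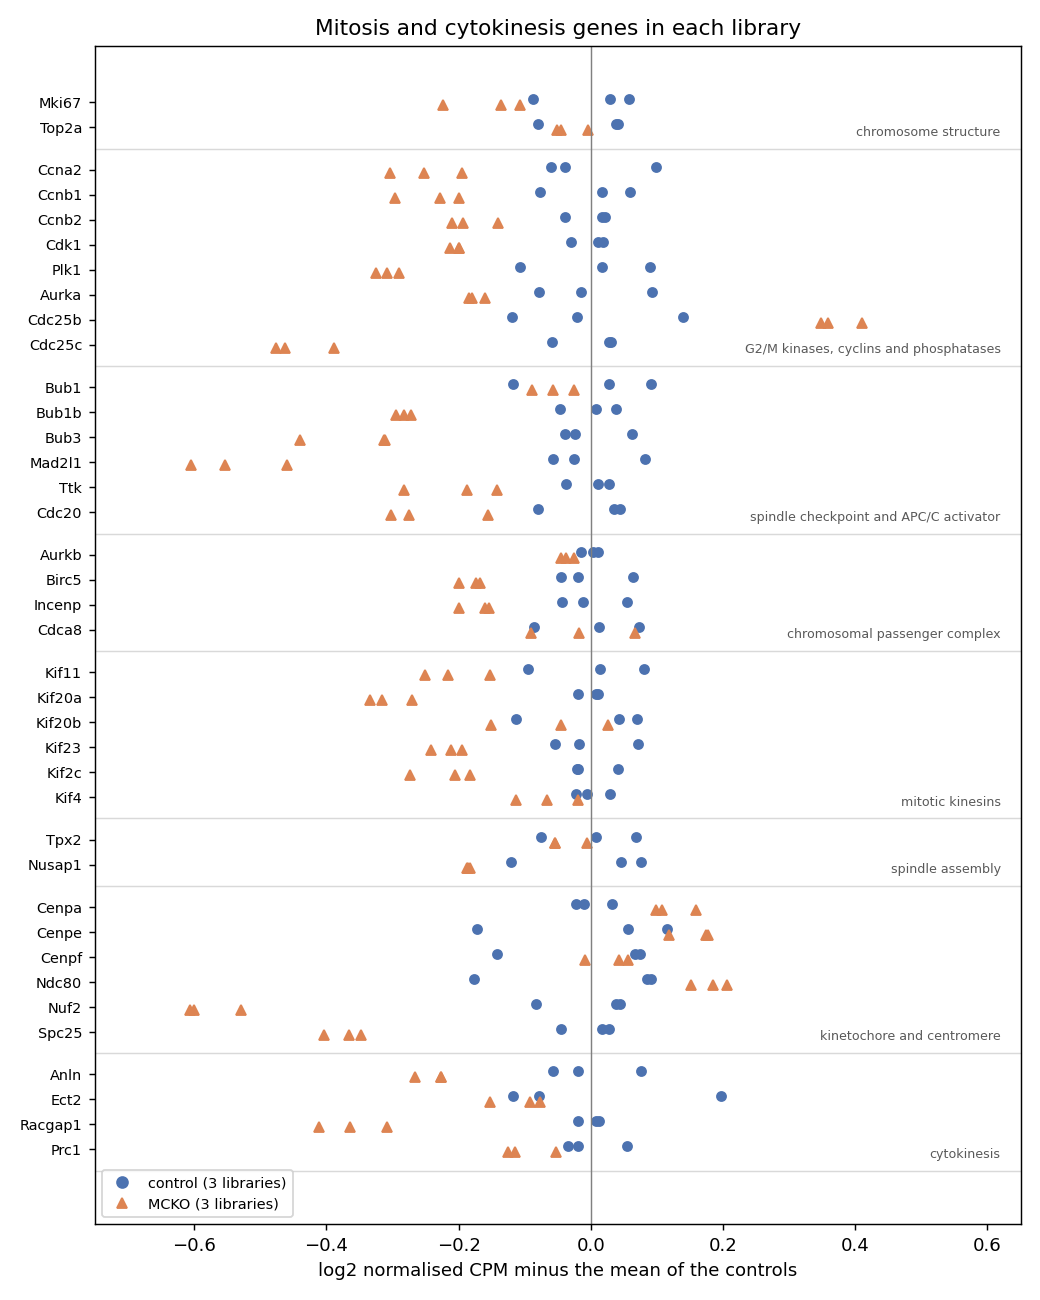
Level of each of the 38 genes in each library, as log2 normalised CPM minus the mean of the 3 controls (x axis), with genes in rows by role. Blue circles are the 3 control libraries and orange triangles the 3 MCKO libraries, and for 26 genes every triangle lies left of every circle.

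The promoters of mitotic genes are known for a pair of short elements, the cell cycle homology region (CHR, letters TTTGAA) and the CCAAT box bound by NF-Y. Promoter sequences, 250 bases before to 50 after the start site in RefSeq on GRCm38.p6, were found for 32 of the 38 genes (35 promoters). On either strand, TTTGAA was present for 24 of these 32 genes and in 77.1% of their promoters, against 17.9% of all 32851 promoters. CCAAT was likewise present for 24 genes and in 77.1% of promoters, against 37.4% of all. Both were present in 65.7% of the members' promoters and in 6.95% of all. The variant TTCGAA was present in 11.4% and in 1.56% of all. E2F sites, spelled TTTGGCGC, TTTCCCGC, TTTGCCGC or TTTCGCGC, were present in 2.86% of the members' promoters and 2.26% of all. In the promoters of 30 DNA replication and S phase genes, TTTGAA was present in 11.4%, CCAAT in 62.9% and E2F sites in 37.1%. In those of 126 genes of 6 further mitotic lists, TTTGAA was present in 31.1%, CCAAT in 74 of 148 promoters and E2F sites in 12.2%. Of the 14130 promoters of tested genes, 1702 held TTTGAA, 37.3% CCAAT and 3.76% E2F sites. No motif contains another, and TTCGAA reads the same on both strands. These are matches of letters, and binding was not measured.

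The arrangement of these elements is shown by 2 genes that fell, Cdk1 and Cdc20, chosen after their motifs were seen. The 120 bases before the start are given in the direction of transcription, with CHR and CCAAT letters in capitals (ATTGG is CCAAT on the other strand). Both are on the minus strand, Cdk1 at chr10:69352913-69353032 and Cdc20 at chr4:118437344-118437463, upstream of the first exon in RefSeq.
Cdk1: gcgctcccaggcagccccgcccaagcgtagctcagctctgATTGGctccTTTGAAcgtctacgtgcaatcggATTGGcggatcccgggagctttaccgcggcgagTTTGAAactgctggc
Cdc20: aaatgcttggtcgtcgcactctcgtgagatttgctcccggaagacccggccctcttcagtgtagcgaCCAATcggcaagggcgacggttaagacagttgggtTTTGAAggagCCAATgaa
The CHR nearest the start began at position -15 in Cdk1 and -18 in Cdc20, where -1 is the last base before the start. Over all members, 22 genes had a CHR that began within 50 bases before the start or after it. Of these 13 were called lower, where 20 of all 32 genes with a promoter were.

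TTTGAA was found both among the genes that fell and among the others. Of the 20 genes called lower with a promoter, 15 had TTTGAA, and of the other 12, 9 had it. Nuf2, Mad2l1, Spc25 and Cdc25b had 4 of the 5 largest changes, and Cenpf and Cdca8 the 2 smallest. Their 250 bases before the start are shown to compare the extremes, with the same capitals. The windows are chr1:169531465-169531714 (minus strand), chr6:66534971-66535220 (plus), chr2:69206214-69206463 (minus), chr2:131186698-131186947 (plus), chr1:189688087-189688336 (minus) and chr4:124936918-124937167 (minus), all on GRCm38.p6.
Nuf2: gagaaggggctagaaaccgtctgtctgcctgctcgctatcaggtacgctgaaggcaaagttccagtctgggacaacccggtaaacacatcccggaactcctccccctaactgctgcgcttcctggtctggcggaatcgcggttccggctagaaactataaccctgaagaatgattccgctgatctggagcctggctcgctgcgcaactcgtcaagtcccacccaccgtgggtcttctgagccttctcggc
Mad2l1: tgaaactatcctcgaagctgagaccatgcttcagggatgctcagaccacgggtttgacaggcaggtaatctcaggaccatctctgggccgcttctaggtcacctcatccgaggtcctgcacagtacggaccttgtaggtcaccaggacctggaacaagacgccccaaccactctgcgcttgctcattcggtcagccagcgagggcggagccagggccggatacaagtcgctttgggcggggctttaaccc
Spc25: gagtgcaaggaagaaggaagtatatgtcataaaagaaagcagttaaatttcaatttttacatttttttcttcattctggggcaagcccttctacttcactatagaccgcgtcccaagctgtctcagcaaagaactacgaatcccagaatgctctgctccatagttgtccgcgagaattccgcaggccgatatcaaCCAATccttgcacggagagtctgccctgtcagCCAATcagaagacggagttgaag
Cdc25b: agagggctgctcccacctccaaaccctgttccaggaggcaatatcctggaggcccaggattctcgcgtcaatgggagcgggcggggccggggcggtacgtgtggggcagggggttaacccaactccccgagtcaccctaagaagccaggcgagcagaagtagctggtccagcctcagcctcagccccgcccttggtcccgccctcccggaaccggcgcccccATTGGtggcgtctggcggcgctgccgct
Cenpf: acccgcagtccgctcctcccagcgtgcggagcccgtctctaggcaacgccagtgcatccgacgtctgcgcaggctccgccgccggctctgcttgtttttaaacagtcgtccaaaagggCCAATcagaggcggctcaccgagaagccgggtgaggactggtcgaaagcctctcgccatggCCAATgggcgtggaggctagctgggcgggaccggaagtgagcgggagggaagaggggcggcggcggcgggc
Cdca8: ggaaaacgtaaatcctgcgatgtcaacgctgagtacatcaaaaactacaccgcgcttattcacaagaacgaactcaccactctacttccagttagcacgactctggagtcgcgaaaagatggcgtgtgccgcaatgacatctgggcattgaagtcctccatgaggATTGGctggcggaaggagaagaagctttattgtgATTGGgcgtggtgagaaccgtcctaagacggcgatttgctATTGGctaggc
Nuf2 and Mad2l1, the 2 largest falls, held neither element in the whole window of 300 bases. Spc25 held 2 CCAAT boxes before its start and Cdc25b 1. Cenpf held 2 and Cdca8 3. In Spc25, Cenpf and Cdca8 a TTTGAA began after the start, at 25, 3 and 14 bases counted from it.

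The kinases and cyclins that drive entry into mitosis were lower, with 1 exception among the CDC25 phosphatases. Of 8 genes, 7 fell and Cdc25b rose. CDC25 phosphatases activate CDK1 by removing inhibitory phosphates. Cdc25c had 31.8, 29.9 and 31.7 normalised CPM in controls and 23.8, 22.4 and 22.6 in MCKO (log2 fold change -0.44, SE 0.057, edgeR adjusted p = 0.000138). Cdc25b had 25.1, 30.0 and 26.8 normalised CPM in controls and 34.9, 34.6 and 36.2 in MCKO (log2 fold change 0.37, SE 0.07, edgeR adjusted p = 0.00141). Neither gene's groups overlapped, and the 2 moved in opposite directions. Plk1, the polo-like kinase that promotes entry and spindle assembly, had 104, 109 and 95.3 normalised CPM in controls and 82.0, 82.9 and 84.0 in MCKO (log2 fold change -0.31, SE 0.055, edgeR adjusted p = 0.00101). All 3 MCKO values of Plk1 lay below the lowest control.

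The CDK1 partners fell by similar amounts. Ccna2 (cyclin A2) had a log2 fold change of -0.25 (SE 0.052, edgeR adjusted p = 0.0026), Ccnb1 (cyclin B1) of -0.24 (SE 0.048, edgeR adjusted p = 0.00187) and Ccnb2 (cyclin B2) of -0.18 (SE 0.044, edgeR adjusted p = 0.00588). Cdk1 itself changed by -0.20 (SE 0.037, edgeR adjusted p = 0.00119), with every library of MCKO between 162 and 164 normalised CPM. Within a library, the ratio of Ccnb1 to Cdk1 counts was 1.32 to 1.4 in controls and 1.27 to 1.36 in MCKO. That of Ccna2 to Cdk1 was 1.22 to 1.36 and 1.21 to 1.29. These ratios overlapped between the groups. Aurka, the kinase of spindle poles, fell by 0.18 on the log2 scale (edgeR adjusted p = 0.0139). Its call was lost without control replicate 1 (-0.13, edgeR adjusted p = 0.0646) and without MCKO replicate 1 (-0.17, edgeR adjusted p = 0.0519).

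Of the 2 genes of chromosome structure, 1 was called. Mki67, the proliferation marker that coats mitotic chromosomes, had 499.8, 461 and 510.0 normalised CPM in controls and 446, 455 and 419.5 in MCKO (log2 fold change -0.16, SE 0.051, edgeR adjusted p = 0.0244). The highest MCKO value and the lowest control value lay close together. The call was lost without control replicate 1, MCKO replicate 1 or MCKO replicate 3 (edgeR adjusted p = 0.0911, 0.059 and 0.106). Top2a, the topoisomerase that untangles sister chromatids, had 659, 607 and 659.8 normalised CPM in controls and 639, 622 and 619 in MCKO. The groups overlapped, and its log2 fold change of -0.035 had a 95% interval of -0.13 to 0.064 (edgeR adjusted p = 0.524). Top2a had the highest level per length of the 38 genes in controls, at 122.9 CPM per kb of its longest transcript, and Cdc25b the lowest at 8.84. With the median length of coding transcripts instead, Cdc25b was still the lowest and Top2a was 7th.

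Of the 6 genes of the spindle checkpoint and its target, 5 fell, and 1 of them, Mad2l1, was among the 5 largest changes of the 38. Mad2l1, whose product MAD2 is part of the inhibitor of CDC20, had 91.5, 89.5 and 98.6 normalised CPM in controls and 63.5, 67.8 and 61.3 in MCKO (log2 fold change -0.54, SE 0.056, edgeR adjusted p = 3.51e-05). This was a fall of 31.2%, the second largest of the 38, at chr6:66535390-66547220. Bub3, the adaptor that brings the BUB proteins to kinetochores, had 115, 122 and 114 normalised CPM in controls and 94.4, 86.5 and 94.6 in MCKO (log2 fold change -0.35, SE 0.051, edgeR adjusted p = 0.000296). Bub1b, which encodes BUBR1, another part of that inhibitor, had 182, 186 and 175 normalised CPM in controls and 149.7, 149 and 147 in MCKO (log2 fold change -0.28, SE 0.04, edgeR adjusted p = 0.000237). For each of these 3 genes the MCKO libraries were all below the controls, with a clear gap. Cdc20, the APC/C activator on which the checkpoint acts, changed by -0.24 (SE 0.055, edgeR adjusted p = 0.0042), and the checkpoint kinase Ttk by -0.20 (SE 0.053, edgeR adjusted p = 0.00878). Bub1, the paralogue of Bub1b and a checkpoint kinase, had a log2 fold change of -0.061 with a 95% interval of -0.19 to 0.066 and was not called (edgeR adjusted p = 0.377). Without control replicate 2 it was called (-0.12, edgeR adjusted p = 0.0396). The ratio of Bub1b to Bub1 counts was 1.37 to 1.67 in controls and 1.27 to 1.3 in MCKO, without overlap, as for most pairs whose ratio was computed.

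The chromosomal passenger complex, which corrects faulty attachments and later acts in cytokinesis, split into 2 genes that fell and 2 that were not called. Birc5 (survivin) had 108, 102 and 100.2 normalised CPM in controls and 92.0, 89.99 and 91.7 in MCKO (log2 fold change -0.18, SE 0.044, edgeR adjusted p = 0.00648). Incenp, the scaffold of the complex, had 126, 120 and 117 normalised CPM in controls and 105, 109 and 108 in MCKO (log2 fold change -0.17, SE 0.043, edgeR adjusted p = 0.00728). Both fell by amounts close to that of Ccnb2. Aurkb, its kinase, had 60.4, 61.5 and 61.1 normalised CPM in controls and 59.5, 59.1 and 59.9 in MCKO (log2 fold change -0.036, SE 0.042, edgeR adjusted p = 0.486). The groups of Aurkb did not overlap, although the gene was not called and its 95% interval was -0.13 to 0.058. Cdca8 (borealin) had the smallest change of the 38, -0.014 with an interval of -0.14 to 0.12, and its groups overlapped (edgeR adjusted p = 0.853). Its sign turned positive without control replicate 2 or without MCKO replicate 1.

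Of the 6 mitotic kinesins 4 fell. Kif20a, which carries the passenger complex to the central spindle, had 207, 211 and 211 normalised CPM in controls and 174, 168 and 166 in MCKO (log2 fold change -0.31, SE 0.038, edgeR adjusted p = 0.00011). Kif2c (MCAK), which takes apart microtubules at centromeres, had 69.8, 72.9 and 69.9 normalised CPM in controls and 62.5, 58.6 and 61.5 in MCKO (log2 fold change -0.22, SE 0.046, edgeR adjusted p = 0.00285). Kif23, the motor subunit of centralspindlin, had 89.9, 92.2 and 98.1 normalised CPM in controls and 80.6, 81.6 and 79.0 in MCKO (log2 fold change -0.22, SE 0.047, edgeR adjusted p = 0.00323). In all 3 the groups did not overlap. Kif11 (Eg5), which pushes the spindle poles apart, changed by -0.21 (SE 0.055, edgeR adjusted p = 0.00925). Kif20b and Kif4, motors that act on the central spindle and in cytokinesis, were not called. Their log2 fold changes were -0.058 with a 95% interval of -0.20 to 0.087 and -0.066 with one of -0.16 to 0.033. Kif20a shares 1271 exonic bases with Cdc23 on the other strand, and Kif4 shares 832 with Pdzd11. Whether the counting used strand is not stated in the labels, so reads of these pairs may not be told apart. Cdc23 had a log2 fold change of -0.15 (edgeR adjusted p = 0.00861) and Pdzd11 of -0.41 (edgeR adjusted p = 0.000289).

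Of the 2 spindle assembly factors, Nusap1 was called and Tpx2 was not. Nusap1, which bundles spindle microtubules, had 104, 92.7 and 106 normalised CPM in controls and 88.7, 88.5 and 88.8 in MCKO (log2 fold change -0.19, SE 0.055, edgeR adjusted p = 0.015). Its call was lost without control replicate 1 (edgeR adjusted p = 0.0683) and without MCKO replicate 2 (edgeR adjusted p = 0.0571). Tpx2, the activator of Aurora A, had 188, 170.0 and 180.1 normalised CPM in controls and 178, 173 and 172 in MCKO (log2 fold change -0.039, SE 0.046, edgeR adjusted p = 0.49), with an interval of -0.14 to 0.065. The groups of Tpx2 overlapped.

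Of 6 kinetochore and centromere genes, 2 fell (33.3%), near the 29.1% of all tested genes. Among the 6 only Cenpa was called higher, and the median was 0.073. The NDC80 complex, which holds the ends of microtubules, has the 4 subunits NDC80, NUF2, SPC24 and SPC25. Nuf2 had the largest change of the 38, with 56.1, 51.6 and 56.3 normalised CPM in controls and 37.9, 35.9 and 36.0 in MCKO (log2 fold change -0.58, SE 0.054, edgeR adjusted p = 1.84e-05), a fall of 33.1%. The gene lies at chr1:169497934-169531464. Spc25 had 55.6, 53.0 and 55.3 normalised CPM in controls and 42.4, 41.3 and 42.9 in MCKO (log2 fold change -0.37, SE 0.047, edgeR adjusted p = 0.000117). For both, no MCKO library reached the lowest control. Ndc80 had 52.9, 44.0 and 52.7 normalised CPM in controls and 57.3, 56.5 and 55.2 in MCKO and was higher in every MCKO library (log2 fold change 0.17, SE 0.071, edgeR adjusted p = 0.0623). It was called without control replicate 3 (0.21, edgeR adjusted p = 0.0246). Spc24, which is on the wider list and not one of the 38, fell by 0.42 on the log2 scale (SE 0.092, edgeR adjusted p = 0.00373).

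Ratios of 2 genes' counts within a library do not depend on how libraries are scaled, and were computed for 17 pairs. Most of the 17 did not overlap between the groups, among them Aurka to Aurkb, Kif20a to Kif20b and Tpx2 to Aurka. A lack of overlap alone therefore does not set a pair apart. The ratio of Nuf2 to Ndc80 counts was 1.06, 1.17 and 1.07 in controls and 0.661, 0.635 and 0.653 in MCKO. That of Spc25 to Ndc80 was 1.05, 1.2 and 1.05 in controls and 0.74, 0.731 and 0.777 in MCKO. The ratio of Spc24 to Ndc80 did not overlap either, at 0.515 to 0.763 against 0.37 to 0.447. Spc24 to Nuf2, at 0.482 to 0.65 against 0.568 to 0.685, overlapped. With 3 libraries a group the smallest 2-sided exact permutation p is 0.1, so these ratios are given without a test. The pairs were chosen after the values were seen.

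**Figure D2:**
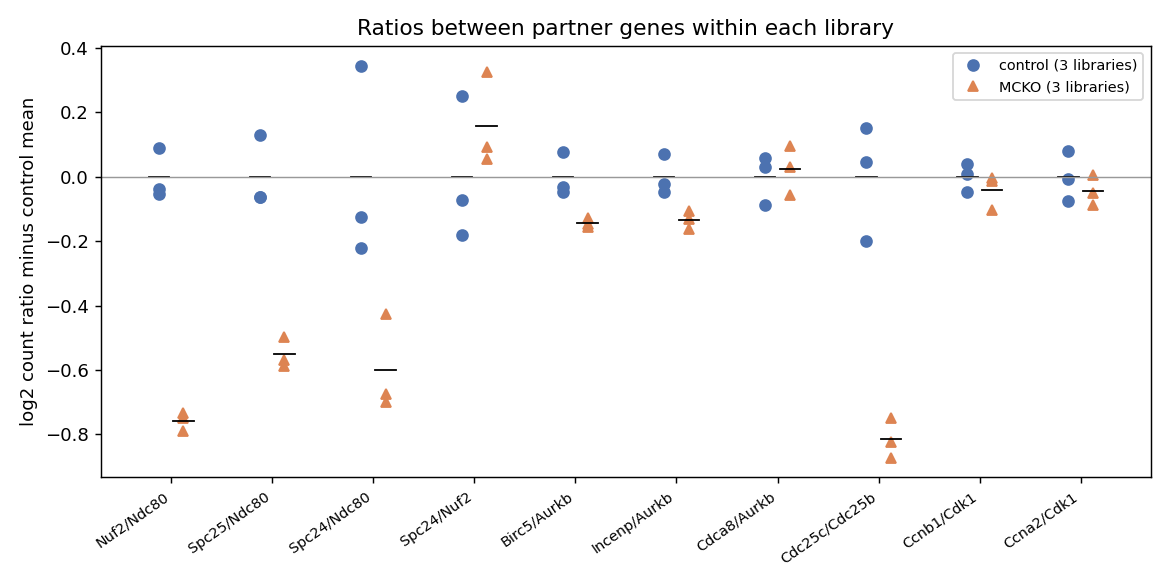
Ratio of the counts of 2 genes within each library, as log2 minus the mean of the controls (y axis), for pairs of genes whose products act together (x axis). Blue circles are 3 control libraries, orange triangles 3 MCKO libraries and black bars group means. The ratios of Nuf2, Spc25 and Spc24 to Ndc80 are lower in every MCKO library, while those of the cyclins to Cdk1 overlap.

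Cenpa, the histone H3 variant that marks centromeres, had 109, 108 and 112 normalised CPM in controls and 117, 118 and 122 in MCKO (log2 fold change 0.12, SE 0.041, edgeR adjusted p = 0.0288). The groups did not overlap, but the rise was small and its call was lost in 9 of 15 other fits, among them library totals only (0.059, edgeR adjusted p = 0.249) and DESeq2 (adjusted p = 0.0528). Leaving out any 1 library other than control replicate 3 also ended the call (edgeR adjusted p = 0.0561 to 0.105). Cenpe, the kinetochore kinesin, had a log2 fold change of 0.15 and a 95% interval of -0.007 to 0.31 (edgeR adjusted p = 0.0916). Cenpf, a large protein of the outer kinetochore, was at 0.025 with an interval of -0.11 to 0.16 (edgeR adjusted p = 0.735), and its sign turned negative with library totals only and without control replicate 2.

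Of the 4 cytokinesis genes 2 fell. Racgap1, the GTPase-activating subunit of centralspindlin, had 192, 192 and 188 normalised CPM in controls and 154, 143 and 148 in MCKO (log2 fold change -0.36, SE 0.041, edgeR adjusted p = 6.58e-05). Anln (anillin), the scaffold of the contractile ring, had 159, 155 and 170.2 normalised CPM in controls and 138, 134 and 138 in MCKO (log2 fold change -0.24, SE 0.046, edgeR adjusted p = 0.00147). Their groups did not overlap. Ect2, the exchange factor that activates RhoA at the cell equator, had 115, 112 and 139 normalised CPM in controls and 115, 114 and 109 in MCKO (log2 fold change -0.12, SE 0.079, edgeR adjusted p = 0.244). Control replicate 3 stood above the other 5 libraries, and without it the log2 fold change was -0.008 (edgeR adjusted p = 0.899). Prc1, which crosslinks the microtubules of the central spindle, had a log2 fold change of -0.10 with an interval of -0.19 to -0.001 (edgeR adjusted p = 0.0777). It was called without control replicate 3 (edgeR adjusted p = 0.0401), with upper quartile factors (edgeR adjusted p = 0.0435) and with library totals only (edgeR adjusted p = 0.0109). The ratio of Racgap1 to Kif23, the 2 subunits of centralspindlin, was 1.91 to 2.13 in controls and 1.75 to 1.91 in MCKO. At this rounding the ranges meet at their ends, although every MCKO ratio lay slightly below every control.

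**Figure D3:**
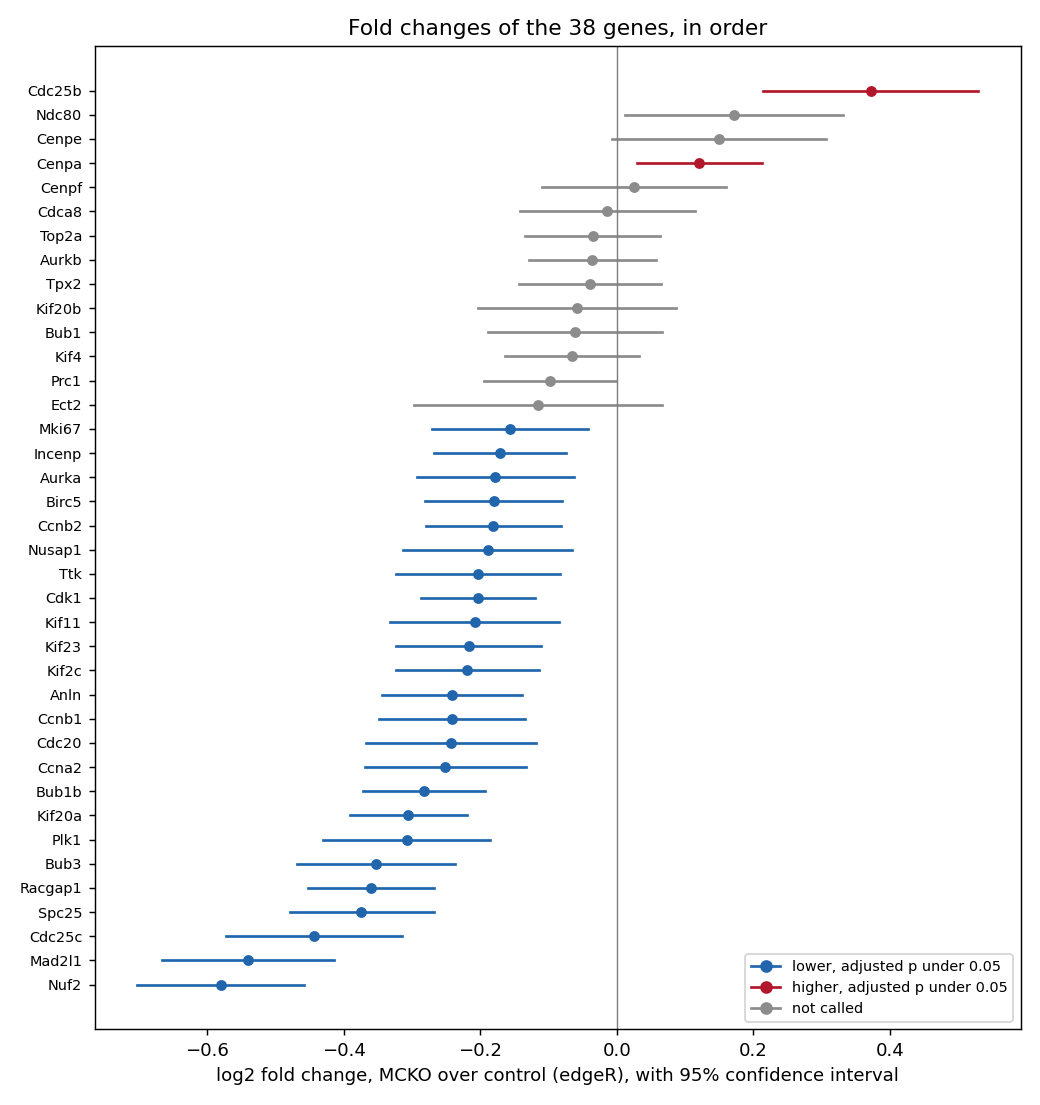
Log2 fold change of MCKO over control for the 38 genes in order (x axis), with the 95% confidence interval of edgeR's estimate as a line. Blue marks the 24 genes called lower, red the 2 called higher and grey the 12 not called. Intervals are not adjusted for the number of genes, so those of Ndc80 and Prc1 exclude 0 although neither gene was called.

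Further mitotic genes, in 6 lists with 147 tested genes, had calls in both directions. Of these 63 fell (42.9%), 19 rose and 65 were not called, with a median of -0.12. Over all tested genes 29.1% were called lower and 29.3% higher. Of 24 tested other G2/M regulators, 14 fell and 2 rose (median -0.21). Pttg1 (securin), the inhibitor of separase, had the largest of these falls, from 36.8 ± 1.7 to 20 ± 0.86 normalised CPM (n = 3 each). Cdc25a, the third CDC25 phosphatase, went from 66.8 ± 2.2 to 41.5 ± 2.2, the kinase gene Pbk from 36.7 ± 1.3 to 23.2 ± 1.4 and Arpp19, an inhibitor of the phosphatase PP2A, from 147 ± 6.5 to 106 ± 2.7. Of 26 other genes of the APC/C and the checkpoint, 15 fell and 3 rose (median -0.16). They included Zw10 at -0.46, the APC/C scaffold Anapc1 at -0.37, Trip13, which recycles MAD2, at -0.52 and Spdl1, which brings dynein to kinetochores, at -0.39.

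Of 31 other kinetochore and centromere genes, 11 fell and 2 rose (median -0.12). The share that fell was 35.5%, where 29.1% of all tested genes fell. Within the members' range of level 34.6% of tested genes fell, but many genes of this list lay below that range. The call with the smallest p in this list was a rise, that of Hjurp, the chaperone that loads CENP-A, from 367 ± 7.9 to 513 ± 11 normalised CPM (edgeR adjusted p = 6.28e-06). Cenpi fell by 0.48, Cenpn by 0.54 and Mis12 by 0.40 on the log2 scale. Of 25 other kinesin and spindle genes, 12 fell and 2 rose (median -0.11), with Haus7, a subunit of augmin, at -0.91, Rcc1, the exchange factor of Ran, at -0.55, Ckap2 at -0.54 and Ran at -0.35. Of 18 condensin and cohesin genes 5 fell (27.8%), 2 rose and 11 were not called (median -0.046), so the share that fell was near that of all tested genes. Of the 4 with the smallest p, Ncaph2 rose by 0.40 and Stag2 by 0.42, while Ncapg2 was at -0.48 and Ncaph at -0.24.

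Of 23 other cytokinesis genes, 6 fell (26.1%) and 8 rose (median 0.042), shares near the 29.1% and 29.3% of all tested genes. Septin11, a filament-forming GTPase (listed as Sept11), went from 215 ± 12 to 341 ± 14 normalised CPM, and Rhoa, the GTPase of the contractile ring, from 335 ± 12 to 439 ± 4.2. Cit (citron kinase), which stabilises the midbody, had a log2 fold change of 0.33, and Diaph1, a formin that nucleates actin, of -0.43. Septins, Rhoa, formins and myosins also serve the cytoskeleton of cells that do not divide.

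Nearly all genes of DNA replication and S phase were lower: 33 of 38 fell (86.8%), none rose, and the median was -0.44. Over all tested genes 29.1% were called lower and 29.3% higher. The log2 fold change of Rrm2, which encodes the small subunit of ribonucleotide reductase, was -1.28, and that of Mcm4, a subunit of the replicative helicase, was -0.69. Rpa1, which coats single-stranded DNA, was at -0.74 and thymidine kinase Tk1 at -0.80. Among 13 tested CDK inhibitors and growth arrest genes, 9 rose and 2 fell (median 0.89). The falls were those of Ccng1 at -0.50 and Cdkn2c at -0.59. Cdkn1c, with the highest level of this list (580 ± 100 normalised CPM in controls and 445 ± 60 in MCKO), was at -0.38 and not called (edgeR adjusted p = 0.0884). Ccng2, an atypical cyclin linked to arrest, went from 30.3 ± 1.6 to 143 ± 1.3 normalised CPM, and Cdkn1a (p21) from 15.0 ± 1.2 to 51.7 ± 1.6. Btg2, an antiproliferative gene, went from 21.6 ± 1.2 to 59.0 ± 1.5 and Gadd45a, a growth arrest gene that can inhibit CDK1, from 2.54 ± 0.02 to 11.1 ± 0.86. The difference between the mitotic and the other lists was not tested, and their counts and medians are descriptions. The lists were chosen with earlier results of these data known.

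**Figure D4:**
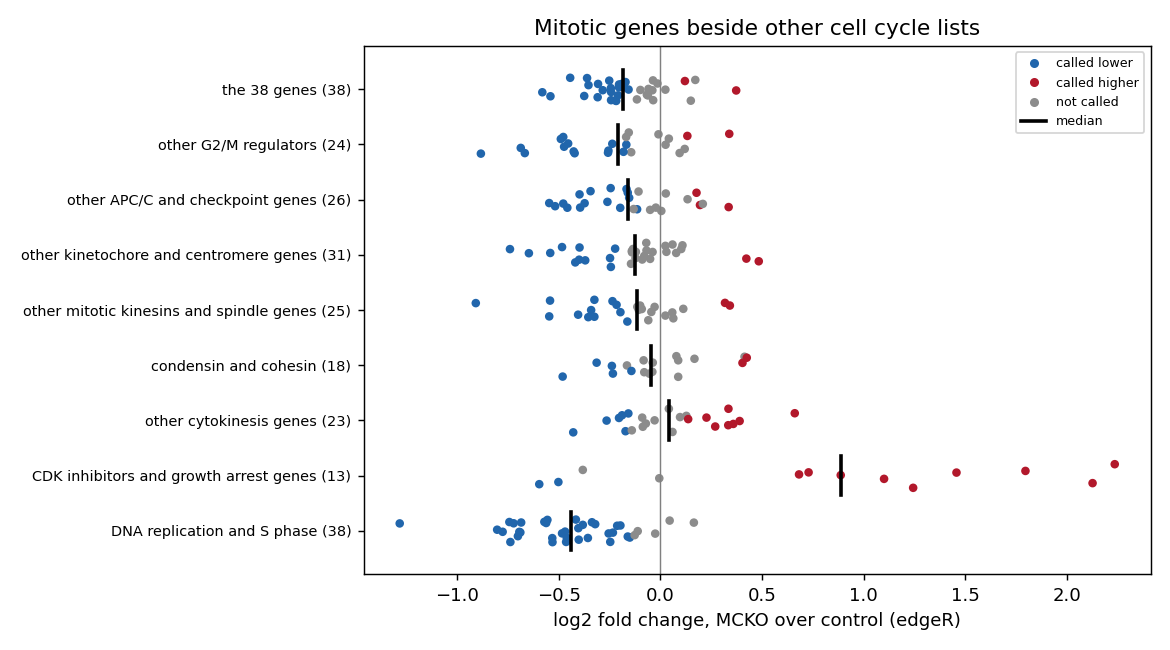
Log2 fold change of MCKO over control for the 38 genes and 8 other lists (rows, with the number of tested genes), 1 point per gene and a black bar at the median. Blue points were called lower, red higher and grey not called. The median is -0.185 for the 38 genes, -0.44 for DNA replication and S phase and 0.89 for CDK inhibitors and growth arrest genes.

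Markers of the cell types of a whole heart moved in the same libraries, and their part in the mitotic changes was not tested. Over all tested genes 29.1% were called lower and 29.3% higher, so calls in either direction are common here. Heart muscle markers summed to 37198 to 40624 CPM in controls and 43366 to 44881 in MCKO, with 5 of 12 higher and 1 lower. Endothelial and endocardial markers summed to 1122 to 1142 and 1250 to 1280 CPM, with 8 of 10 higher and 2 lower. Primitive red cell markers summed to 3043 to 3337 and 6387 to 6801 CPM, with 8 of 8 higher. These 3 sums were higher in every MCKO library than in any control. Epicardial and proepicardial markers summed to 220.0 to 230.0 and 87.3 to 90.3 CPM, with 7 of 8 lower. Pharyngeal endoderm and epithelial markers summed to 153 to 167 and 257 to 279 CPM, with all 7 tested higher, and Nkx2-1 was too low to test. Mesenchymal markers of cushions and neural crest summed to 135 to 143 and 84.5 to 88.9 CPM, with 4 of 8 lower. The other 4 had positive log2 fold changes and were not called, so this list was split. Of these, the epicardial and mesenchymal sums were lower in every MCKO library and the endodermal sum higher. Leukocyte markers summed to 15.6 to 16.8 and 4.55 to 5.65 CPM, with 2 of 3 tested lower and C1qa at 0 in all 6 libraries. Heart muscle markers had the highest sum in every library.

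Copies and overlapping genes touch a few of the values. Ccnb1 has copies in the table, Ccnb1-ps and Gm12856, with at most 6 counts in a library. The copy Plk-ps1 held at most 1.64% of the counts of Plk1, and the copy of Cdc20 at most 1 count in a library. Kif2c has copies, Gm4961 and Gm6785, that are not among the IDs of the table. Ccna2 shares 510 exonic bases with Exosc9 on the other strand, and Exosc9 also fell (-0.26, edgeR adjusted p = 0.00371). Cdc25c, Prc1, Nusap1, Cdc20 and Cdc25b share 53 to 911 exonic bases with a gene of the table on the other strand, so their values carry the same uncertainty.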

How the data were processed

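The data are 6 RNA-seq libraries, 3 control and 3 MCKO, from Aurum-purified total RNA and the TruSeq Stranded mRNA kit, per the labels. The authors deposited 1 table of estimated counts by gene, all of them whole. Per the submitters' processing notes the tools include kallisto and the build is mm10; neither a version nor a role is stated. Which transcripts were used, whether strand was, and how values were rounded is not given in the sources used here. Knockout columns are named CKO where the sample titles have MCKO.

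Genes were filtered with filterByExpr, scaled with TMM and tested with edgeR 4.0.16 (robust quasi-likelihood, group as only term, 2-sided) in R 4.3.3. Benjamini-Hochberg adjustment covered all 14697 tested genes, at a threshold of 0.05. The script was tested on simulated data. A first simulation, with changed genes drawn at all expression levels, recovered too few of them, so they were drawn at the members' levels instead. Recovery then rose with the size of the change and was low for the smallest, and false calls exceeded the nominal rate. Far fewer genes were changed in the simulation than were called in the data, so these rates may not carry over. Normalised CPM are mean ± SD where given so; marker sums are CPM of library totals. Symbols, positions and lengths came from GENCODE M21 (GRCm38, also called mm10), promoters from RefSeq. Copies were found with minimap2 2.31 at 90% identity over 50% of the shorter transcript. The deepest and shallowest libraries allow 0.0876 and 0.156 CPM for a count of 0 (3 counts), which covers counting error only.

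Members and lists were chosen with earlier results of these data known. Values in every library are given for the 3 largest changes in each of 8 role groups and for called genes against the majority, and up to 4 called genes of each pathway list are named by smallest p. Alternatives were other size factors and filters, DESeq2 1.42.0, limma-voom (limma 3.58.1), stricter thresholds, a replicate block, each library left out, no mitochondrially encoded or haemoglobin genes, and another transcript length. Leaving each library out of the count ratios was added after seeing the data. Proteins were not analysed here.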

Additional observations from a re-analysis of the deposited data

How the results depend on the processing

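In the 15 other fits at the same threshold, 21 of the 24 falls were called every time, and the calls of Mki67, Aurka and Nusap1 were lost in 4, 2 and 2 of them. The members called lower numbered 23 to 26 with all libraries and 21 to 25 with each library left out, and 21 at an adjusted p under 0.01. The members called higher were 1 instead of 2 with upper quartile factors, library totals only, DESeq2, the replicate block and an adjusted p under 0.01, and 1 to 3 with each library left out. Cenpa was lost in each of those with all libraries. With library totals only, which moved the median of all tested genes by -0.062, the members' median was -0.247 (-0.20 to -0.18 with each library left out), Kif4 and Prc1 were called lower as well, and 42.6% of all calls were higher, against 50.2%. Asking for a 1.5-fold change left 0 members lower and 0 higher, 3379 genes in all, and 17 lower and 10 higher over the 8 pathway lists, by construction fewer. Genes called over all tested genes were 7452 to 8695 with each library left out, and pathway genes 88 to 106 lower and 26 to 32 higher. Cdc42 was at -0.70 to -0.62 with each library left out. Signs of near-zero changes turned for Cenpf, at -0.036 with library totals only and from -0.044 to 0.060 with each library left out, and for Cdca8, from -0.056 to 0.026 with each library left out. The cause was not tested. Over all tested genes 19.3 to 34.2% were called lower and 20.3 to 31.7% higher in these fits. The 32 pathway genes named by smallest p, 4 of each list, stayed called in each of the 15 fits. With the median coding length, the summed level of the 38 genes was 2875.3 CPM per kb in controls and 2585.3 in MCKO, against 1400.5 and 1244.6, so levels per length depend on the transcripts assumed.

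Same-numbered libraries did not deviate together (correlations -0.0047, 0.022 and -0.13), and none correlated best with its own number. With the replicate block 7765 genes were called, 23 members lower and 1 higher, and Mki67 (adjusted p = 0.0729) and Cenpa (adjusted p = 0.0757) were lost. Within groups the libraries differed by 3.58 to 15.4 chi-square units per degree of freedom, so none was taken for a copy of another. With 3 libraries a group and standard errors of 0.037 to 0.079, small changes could not be resolved reliably here. Ndc80 at 0.17 and Cenpe at 0.15 on the log2 scale were not called, although Cenpa at 0.12 was. A gene that was not called is therefore not shown to be unchanged.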

Other observations

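The 38 genes are spread over 16 chromosomes, with 7 on chromosome 2, where 4 fell (Aurka, Bub1b, Nusap1 and Spc25), Cdc25b rose and Bub1 and Tpx2 were not called. Of the 19 genes with the shorter transcripts (1531 to 3645 bases, longest transcript) 14 fell, and of the 19 with longer ones (3668 to 11130 bases) 10 fell. Over all tested genes 29.0% of those shorter than 3668 bases and 29.3% of the others were called lower. Across the 38 genes Spearman's rho between the log2 fold change and transcript length was 0.23, and those with GC content and with control level were 0.030 and 0.037. These are correlations across genes of the same libraries, which are not independent replicates.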
